A study of Rattus norvegicus with 35 samples.

Results

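Odorant-binding proteins and the abundant proteins of nasal secretion were followed in the olfactory epithelium of Brown Norway rats of 3 ages, through 9 probes for 8 genes among the 41012 probes of an Agilent whole rat genome array. The members were Obp1f, with a pair of probes, Obp3, Plunc, Scgb1a1, Scgb1c1, Lyz and Pigr, each found by its gene name on the array, and Obp2b, found because its description holds the words odorant binding protein. RNA came from 19 newborn pups aged 3 to 5 days, of unknown sex (4 of litter L1 and 5 each of litters L2, L3 and L4, 1 side of the nose per pup), from 4 adult males aged 9 weeks and from 4 old males aged 22 months, housed since they were 3 weeks old. Each adult and old rat gave 1 array per nostril, named A and B, which makes 35 arrays from 27 rats, with 1 dye throughout. Each rat is an animal of its own, but pups of a litter share a mother, and no rat was treated. Adult and old rats were all male, so age and sex cannot be fully told apart in the comparison with pups. The tissue was removed whole, so fewer cells of a type and less RNA per cell cannot be told apart in these values.

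The lining of the nose is covered with mucus made by Bowman's glands, sustentacular cells, goblet cells and several larger glands that open into the nasal cavity. Odorant-binding proteins are small secreted lipocalins, whose barrel-shaped pocket holds volatile, fat-soluble molecules, and they are known as products of nasal glands rather than of the sensory neurons. Secretoglobins, Plunc (now named Bpifa1) and lysozyme are soluble proteins of the same fluid, and the polymeric immunoglobulin receptor Pigr carries IgA through epithelial cells into it.

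Each probe has 60 bases, and its place is given in rat build rn3, as the array files state it. The sequences shown are those on which the results turn: the odorant-binding protein probes, the Mup4 probe that resembles one of them, and the probe with the clearest change with age.
Obp1f, probe 1: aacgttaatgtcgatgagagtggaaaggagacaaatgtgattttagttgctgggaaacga
Obp1f, probe 2: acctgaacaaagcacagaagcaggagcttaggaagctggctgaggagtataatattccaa
Obp3: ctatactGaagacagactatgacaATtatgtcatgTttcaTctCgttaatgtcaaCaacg
Mup4: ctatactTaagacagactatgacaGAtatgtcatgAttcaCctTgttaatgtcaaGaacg
Obp2b: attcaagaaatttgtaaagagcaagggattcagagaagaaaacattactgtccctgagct
Scgb1c1: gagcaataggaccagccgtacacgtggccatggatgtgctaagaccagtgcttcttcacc
Obp1f probe 1 lies at chrX:63680086-63681918 on the plus strand, a span of 1833 bases that is longer than the probe and so crosses at least 1 intron. Obp1f probe 2 lies at chrX:63744329-63744388 on the minus strand, another place than that of probe 1, although the array's accession lists pair both probes with the same odorant-binding protein 1F mRNA. Obp3 lies at chr5:78095776-78095835 on the minus strand, Obp2b at chr3:3936682-3936741 and Scgb1c1 at chr1:201154224-201154283. Capitals mark the 7 positions at which the Obp3 and Mup4 probes differ, so 53 of their 60 bases are the same. Mup4, an alpha-2u globulin (a male urinary lipocalin family to which the array's own description assigns Obp3 as well), lies at chr5:78223032-78223091. A search among all probes of the array found such a resemblance, over at least 25 aligned bases, for Obp3 alone of the 9 member probes. The Mup4 probe gave a signal well above background on 0 of 35 arrays, so the Obp3 signal was not accompanied by one from its closest probe, although binding of other alpha-2u globulin mRNAs to the Obp3 probe was not tested. The remaining probes are for Plunc (chr3:144441144-144441203), Scgb1a1 (chr1:211918166-211918225), Lyz (chr7:56629170-56629966) and Pigr (chr13:43816545-43816979).

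The level of a probe is given as the log2 of its background-subtracted signal over the median signal of the array, so that 0 is the array's median and each unit is a doubling. Levels under -6.64 were set to that floor and have no order among themselves. Array medians were 46.0 to 96.5 signal units for pups, 88.7 to 179 for adult rats and 40.2 to 59.8 for old rats, and between 24493 and 28376 probes per array were well above background. The brightest probe of an array stood at 12.71 to 13.38 for pups, 11.90 to 12.89 for adult rats and 12.75 to 13.41 for old rats, and between 5 and 23 probes were saturated on an adult array against at most 1 on any other. The adult arrays were scanned on days of their own and processed with an earlier release of the scanner software, so that adult age and scan cannot be told apart, while litter L1 and the old rats shared a scan day. All 8 genes on the array that were listed as olfactory sensory neuron markers (among them Omp, Cnga2 and Cnga1) were well above background on every array. So were 6 of 7 sustentacular cell markers in newborn and in adult rats and 7 of 7 in old rats.

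Obp1f, an odorant-binding protein of rat nasal mucus, was present at very different levels in rats of the same age. By probe 2, pups ranged from -5.07 to 9.52 (median 4.92, n = 19). In litter L2, the levels were -4.06, -5.07, -1.06, 8.17 and 9.52 in rats 21, 22, 23, 24 and 25. Rats 24 and 25 thus stood more than 9 log2 units above the other 3 pups of their litter, and rat 25 shared its slide and scan day with the low ones. In litter L3, rat 30 stood at -0.43 while its 4 littermates were at 6.42, 4.65, 7.83 and 8.11. Litters L1 and L4 held no such low pup: L1 ranged from 3.82 to 6.50 and L4 from 4.10 to 7.31.

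Both nostrils of 1 rat could differ as much. In old rat 19, Obp1f probe 2 was at 9.73 on side A and at -2.08 on side B, where it was not well above background. The other old rats gave, for A and B, -2.34 and 3.73 (rat 17), 1.49 and 0.29 (rat 18), and 1.96 and 2.28 (rat 20). In adult rats the corresponding pairs were 0.08 and 0.20 (rat 13), -2.21 and 1.54 (rat 14), 5.95 and -0.18 (rat 15), and 4.04 and 4.12 (rat 16). In 4 of these 8 rats the sides differed by more than 4-fold, most of all in rat 19, and in rats 17 and 19 the dim side was not well above background. In rats 13, 16 and 20 the sides differed by about 1.25-fold or less. Side A was the higher one in 3 of 8 rats.

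Probe 1 of Obp1f, which is placed elsewhere on chromosome X and on the other strand, gave the same picture. It stood at the floor in rats 21, 22 and 23 of L2 and at 6.88 and 8.22 in rats 24 and 25, and in old rat 19 at 8.20 on side A and -5.85 on side B. Over the 27 rats the levels of both probes had a correlation of 0.981, a description of a pair of probes that share their arrays and, by the array's annotation, an mRNA. The variation was therefore seen by both probes and not by a single spot.

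**Figure D1:**
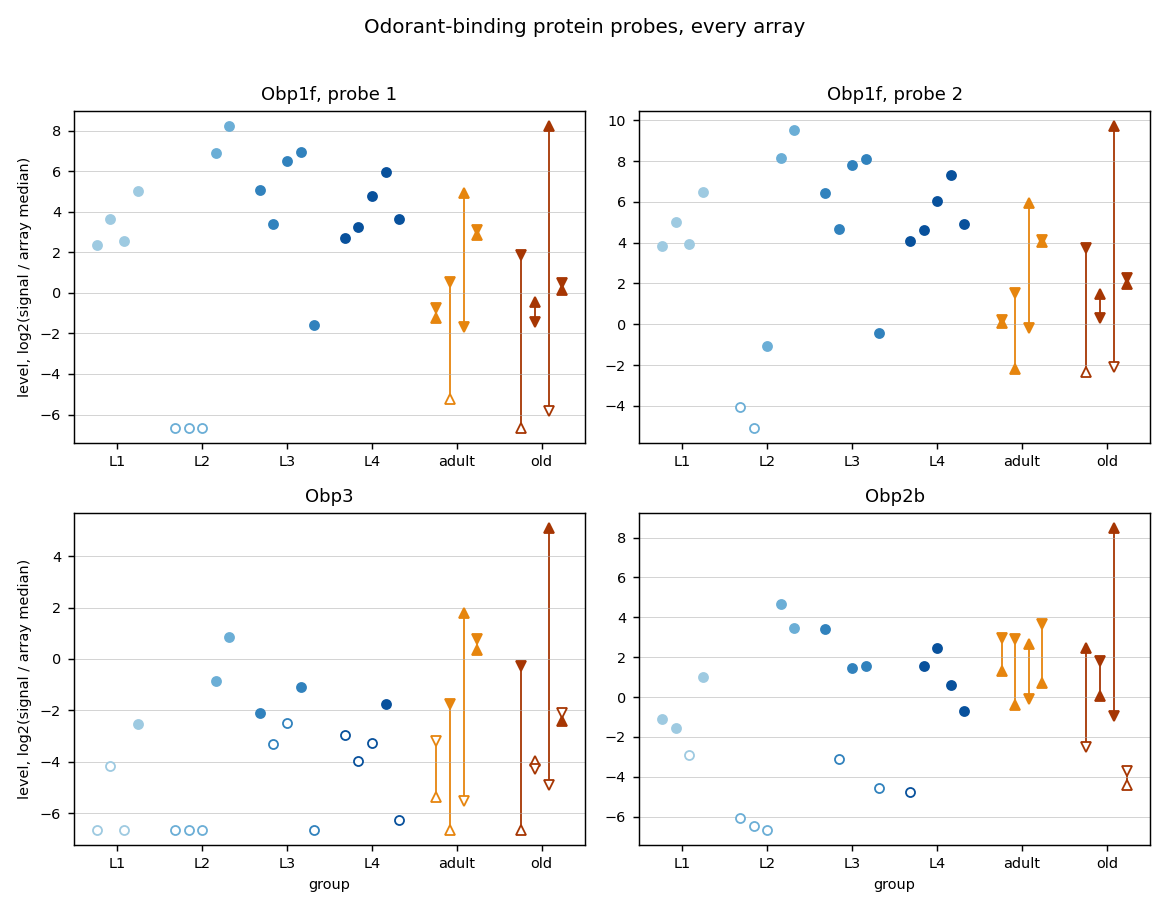
Level of the 4 odorant-binding protein probes on every array (vertical axis, log2 of signal over array median) by group (horizontal axis). Circles are pups, upward and downward triangles joined by a line are sides A and B of an adult or old rat, and open symbols are spots not well above background. The low pups 21 to 23 of L2, near -6.6 by probe 1, and the long line of old rat 19, from -5.85 to 8.20 by the same probe, recur in each panel.

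Obp3, the alpha-2u globulin member, was dimmer and near background on most arrays. It was well above background on 6 of 19 newborn arrays, 4 of 8 adult arrays and 3 of 8 old arrays. In adult rats, the levels on A and B were -5.37 and -3.21 (rat 13), the floor and -1.76 (rat 14), 1.79 and -5.54 (rat 15), and 0.35 and 0.79 (rat 16). In old rats they were the floor and -0.27 (rat 17), -3.97 and -4.27 (rat 18), 5.10 and -4.90 (rat 19), and -2.42 and -2.09 (rat 20). Pups ranged from the floor to 0.87 (median -3.32), with rats 24 and 25 of L2 the highest, at -0.87 and 0.87, and rats 21 to 23 at the floor. The high arrays were thus those on which Obp1f was high, at each age.

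Obp2b, a lipocalin related to human OBP2, had its own share of this variation. It was well above background on 12 of 19 newborn, all 8 adult and 5 of 8 old arrays. Adult values were 1.31 and 2.97 (rat 13), -0.42 and 2.90 (rat 14), 2.66 and -0.09 (rat 15), and 0.71 and 3.68 (rat 16) for A and B. Old rats gave 2.47 and -2.52 (rat 17), 0.08 and 1.79 (rat 18), 8.48 and -0.97 (rat 19), and -4.43 and -3.70 (rat 20). Pups ranged from the floor to 4.66 (median -0.70), and rats 24 and 25 were again far above rats 21 to 23, at 4.66 and 3.46 against -6.07, -6.46 and the floor. Adult rats were the most alike for this probe when both sides were averaged (SD 0.52, n = 4), against an SD of 3.24 in old rats.

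Set against all 28783 probes that were well above background on at least 8 arrays, the odorant-binding protein probes were at the extreme of variation between samples of a group. This spread includes that between sides of 1 rat, and the sources used here do not say how much glandular tissue each sample held. The SD between rats of the same group was 3.94 for Obp1f probe 1, which ranked 1 among these probes, 3.58 for Obp1f probe 2 (rank 8), 3.46 for Obp2b (rank 13) and 2.41 for Obp3 (rank 50), with a median of 0.23 over the 28783 probes. The mean difference between sides was 4.63, 3.69, 3.45 and 3.98 in the same order of probes, and its median over all probes was 0.18. By contrast, Plunc and Scgb1c1 had a within-group SD of 0.15 and 0.32 and a mean side difference of 0.28 and 0.16. These are ranks within 1 data set and carry no test. For each odorant-binding protein probe the spread includes spots not well above background. For Obp1f probe 1, Obp3 and Obp2b it also includes spots at the floor, so its size depends in part on that floor.

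No difference with age was found for the odorant-binding proteins beyond this spread. Obp1f probe 2 averaged 4.26 ± 4.09 in newborn rats (SD, n = 19), 1.69 ± 2.13 in adult rats (n = 4) and 1.88 ± 1.44 in old rats (n = 4). The limma difference was 2.57 between newborn and adult rats (95% interval -1.40 to 6.53, adjusted p = 0.275), 2.38 between newborn and old rats (-1.58 to 6.34, adjusted p = 0.322) and 0.19 between old and adult rats (-4.90 to 5.28, adjusted p = 0.980). Intervals this wide leave room for differences of more than 10-fold in either direction between old and adult rats. For probe 1, Obp3 and Obp2b the adjusted p values lay between 0.234 and 1 in the 3 age comparisons, and the groups overlapped in every one. The order of the group means was newborn, old and adult for Obp1f probe 2, newborn, adult and old for probe 1, and for Obp3 and Obp2b newborn rats had the lowest mean, but none of these neighbours differed beyond its spread. The average of A and B hides the spread between sides: with side B alone, the sign of the old against adult difference turned for Obp1f probe 2 (-0.36) and Obp3 (-0.45), and that of newborn against old for Obp2b (0.40), all far from the threshold.

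The odorant-binding proteins moved together from array to array. In each of the 8 rats with an array for both sides, the side with more Obp1f also had more Obp3, and in 6 of 8 it had more Obp2b. However, Obp3 was well above background on both sides in rat 16 only, and on neither side in rats 13 and 18. In rat 20 the higher side for Obp3, B, was not well above background, and neither side was for Obp2b. After the mean of each group was taken out, the correlation over the 27 rats was 0.891 between Obp1f probe 2 and Obp3, 0.815 between Obp1f probe 2 and Obp2b, and 0.702 between Obp2b and Obp3. These describe rats that share a litter, a slide or a scan day, and include values at the floor. With Obp1f probe 2, the other members had correlations of 0.661 (Pigr), 0.520 (Scgb1c1), 0.413 (Scgb1a1), 0.207 (Lyz) and 0.131 (Plunc).

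**Figure D2:**
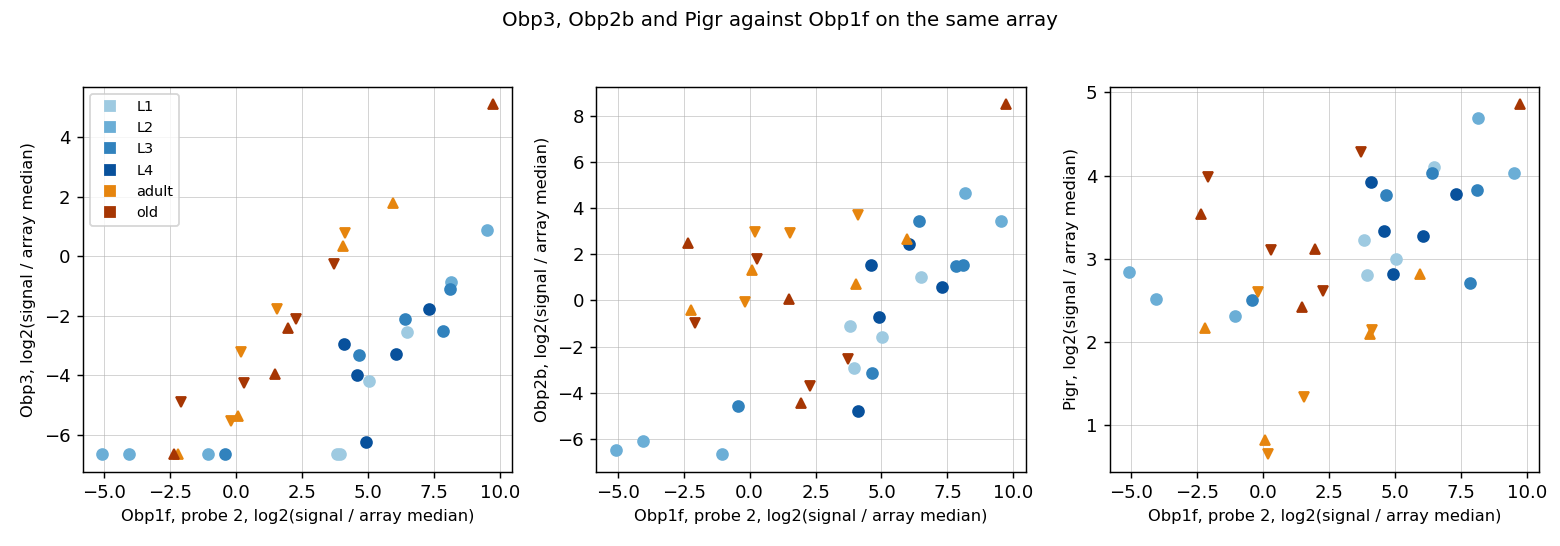
Levels of Obp3, Obp2b and Pigr (vertical axes) against Obp1f probe 2 (horizontal axis) on the same array, all as log2 of signal over array median. Colors are the 6 groups, and the triangles are sides A (up) and B (down). Where both probes were well above background, adult and old arrays form one line in the left panel and newborn arrays another. There Obp1f minus Obp3 was 3.30 to 4.63 and 8.52 to 9.21. Arrays with dim Obp3, such as those of rats 21 to 23 at its floor, do not all keep to these lines.

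The balance between Obp1f and Obp3 differed between pups, of unknown sex, and the older rats, all male, so age and sex cannot be told apart in it. On the 6 newborn arrays on which both probes were well above background, Obp1f probe 2 minus Obp3 was 9.03 (rat 12), 9.04 (rat 24), 8.65 (rat 25), 8.52 (rat 26), 9.21 (rat 29) and 9.08 (rat 34). On the 4 adult arrays it was 3.30 (rat 14, side B), 4.16 (rat 15, side A), 3.69 (rat 16, side A) and 3.33 (rat 16, side B), and on the 3 old arrays 3.99 (rat 17, side B), 4.63 (rat 19, side A) and 4.38 (rat 20, side A). Newborn arrays did not overlap with those of the other ages, and over the 6 newborn arrays the difference covered less than 1 unit while Obp1f itself ran from 6.42 to 9.52. On the 3 old arrays Obp1f ran from 1.96 to 9.73, and the difference covered less than 1 unit there too. Leaving out arrays with dim Obp3 can narrow these ranges. Rat 28, with Obp1f at 7.83, was left out because its Obp3, at -2.50, was not well above background. A difference between a pair of probes includes their unequal labeling, so its size has no meaning by itself and only its change between ages does. The contrast was chosen after its values were seen and rests on the brighter arrays only, so no test is given, and since the adult arrays had a scan of their own, the old arrays, scanned with L1, are the closer comparison, though only rat 12 of L1 contributed. The same quantity with Obp2b ran from 2.98 to 6.71 on 12 newborn arrays and from -2.77 to 3.32 on 8 adult arrays, which overlap, and from -1.50 to 1.41 on 3 old arrays.

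The genes whose levels were most like Obp1f over the 27 rats were Pip, prolactin induced protein (Pearson r = 0.855), Smr3a (0.850) and Lcn9, a further lipocalin (0.815). Pip stood at 7.24 and 8.43 in rats 24 and 25 of L2 and was not well above background in rats 21 to 23. On side A of old rat 19 it was at 2.81, with Obp1f at 9.73, and on side B at the floor. Over 16 newborn arrays Obp1f probe 2 minus Pip lay between 0.24 and 3.99, against 6.91 on that old array, the single one of 16 adult and old arrays with both probes well above background. For Obp3 and for Obp2b the same 3 genes were nearest, namely Mup5, Mup4l1 and Mup4l4, all of the alpha-2u globulin family (r between 0.900 and 0.913 with Obp3, and between 0.748 and 0.794 with Obp2b). On side A of rat 19 they were at 7.11, 7.19 and 6.59, and on side B at -3.49, -3.01 and -5.21.

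**Figure D3:**
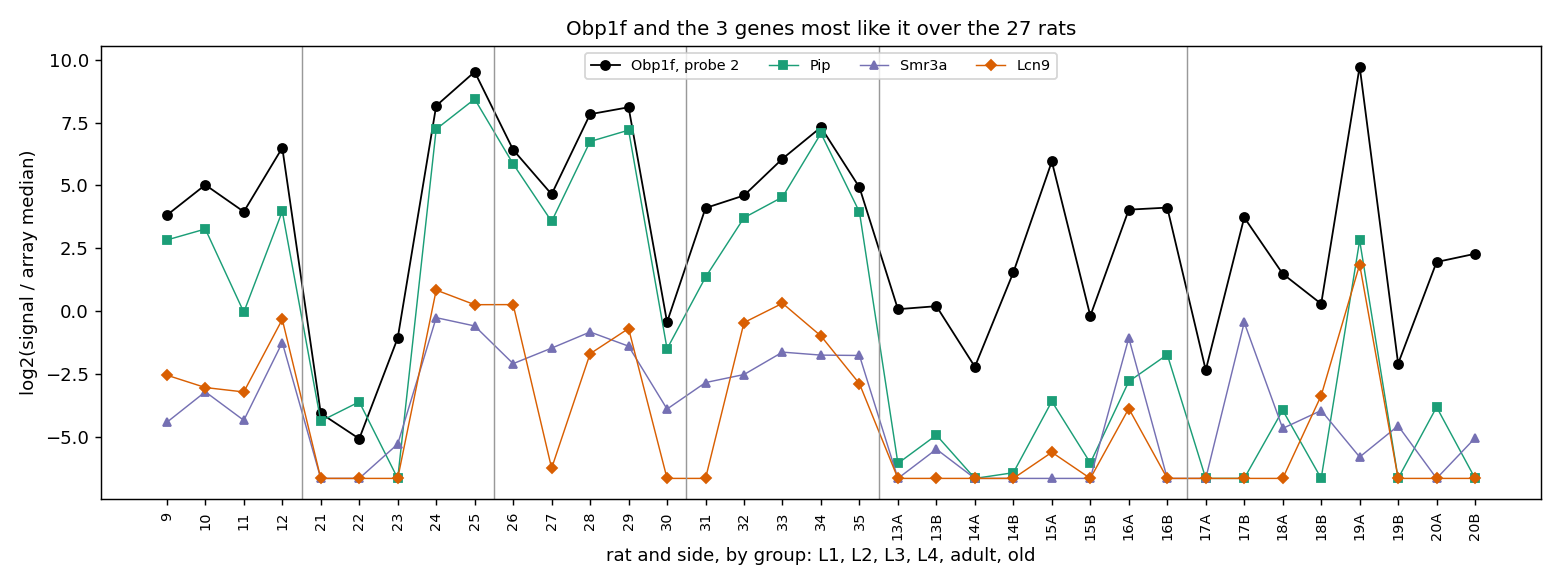
Levels of Obp1f probe 2 and of the 3 genes most like it (vertical axis, log2 of signal over array median) on each of the 35 arrays (horizontal axis, rat number and side, groups separated by vertical lines). Pip (squares) ran close to Obp1f in pups, at 7.24 and 8.43 in rats 24 and 25, and lay at or near the floor of -6.64 on most adult and old arrays.

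Marker genes of other cell types gave a measure of what else differed between these samples. The summed level of 7 ciliated respiratory cell markers was 8.95 to 9.33 in rats 21 to 23 and 9.82 to 10.28 in rats 24 and 25 of L2, and over the 27 rats, with group means taken out, it had a correlation of 0.676 with Obp1f probe 2 and 0.749 with Obp3. The sum of 6 Bowman's gland and respiratory gland markers was 7.55 to 7.89 and 7.84 to 8.03 in the same pups (correlation 0.472 with Obp1f), and that of 8 olfactory sensory neuron markers was 8.28 to 8.76 and 8.01 to 8.43 (correlation -0.01). In old rat 19, in which Obp1f differed most between sides, the ciliated sum was 9.63 on side A and 9.80 on side B, the gland sum 9.21 and 9.09, and the neuron sum 10.89 and 10.78. Of the gland markers, Bpifa2, Ltf and Lpo were well above background on none of the old arrays. Bpifa2 and Lpo were so on no adult array either, and Ltf on no newborn array. Levels were added before the log2, so the gland sum follows its brightest genes and is not by itself a measure of gland content. The sum of 9 macrophage markers was at most 8.19 in rats 21 to 23 and 8.24 to 9.00 in rats 24 and 25 (correlation 0.479 with Obp1f), and 8.62 and 8.45 on sides A and B of rat 19. The part of any of these cells in the odorant-binding protein levels was not tested.

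Scgb1c1, a secretoglobin known from the olfactory mucosa, differed between all 3 ages once signals were divided by the array median. Pups ranged from 9.29 to 10.78 (median 10.38), adult rats stood at 11.11, 10.98, 11.11 and 11.29, and old rats at 12.37, 12.68, 12.62 and 12.35, for rats 13 to 16 and 17 to 20. The 3 ages did not overlap, and neither did any single array. Newborn rats averaged 10.23 ± 0.41 (SD, n = 19), adult rats 11.12 ± 0.13 (n = 4) and old rats 12.50 ± 0.17 (n = 4). Limma gave a 1.85-fold lower level in newborn than in adult rats (log2 -0.89, SE 0.17, adjusted p = 0.000130), a 4.82-fold lower level in newborn than in old rats (log2 -2.27, SE 0.17, adjusted p = 2.04e-10) and a 2.60-fold higher level in old than in adult rats (log2 1.38, SE 0.22, adjusted p = 2.79e-05). With L1 and old rats alone, scanned on 1 day, the difference was -2.68 (SE 0.23, adjusted p = 0.000202). Old arrays were within 0.42 to 0.64 of the brightest probe of the array, so a level there can be compressed by the top of the scale. Before division by the array median, the median signal was 72544 units on newborn arrays, 271029 on adult arrays and 283304 on old arrays, with overlap between adult and old arrays (202071 to 342839 and 246528 to 305756). The step from adult to old rats thus depends on the scaling, and with quantile normalization it was 0.75 on the log2 scale, still past the threshold, while that of newborn against adult rats was -1.50.

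**Figure D4:**
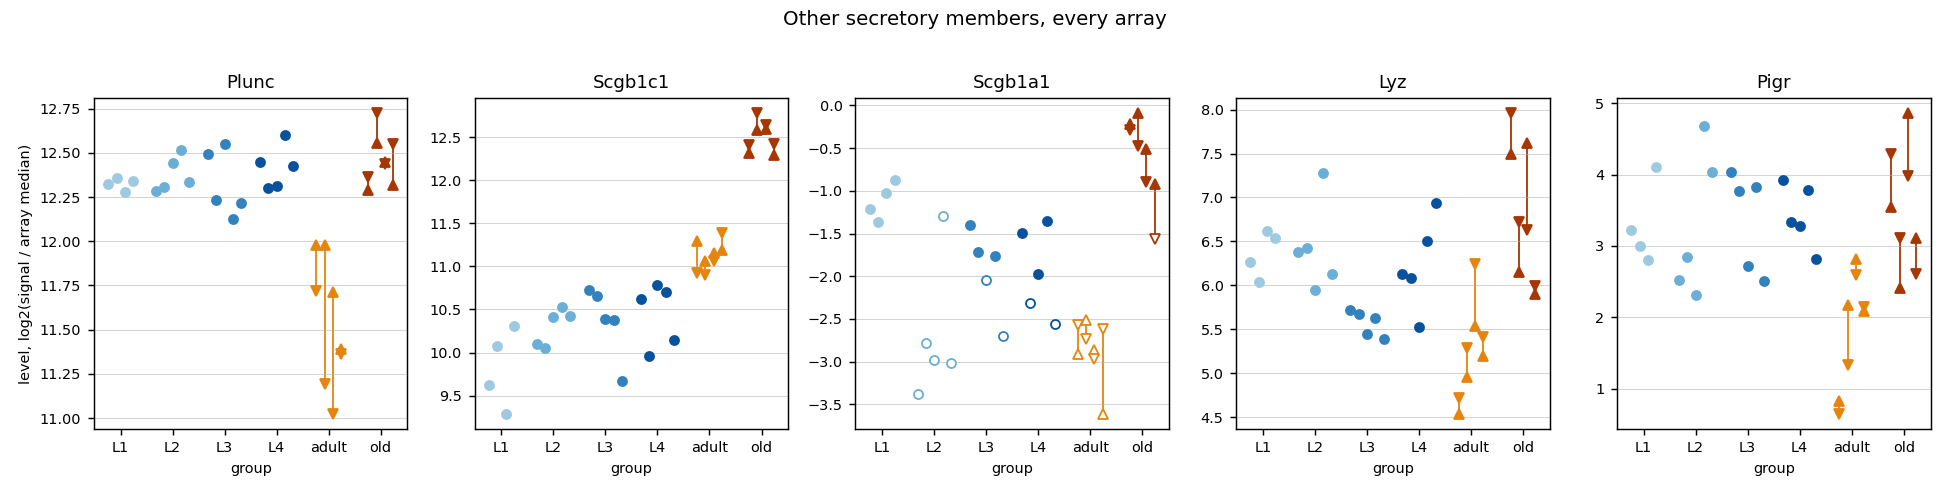
Levels of the 5 other secretory members on every array (vertical axes, log2 of signal over array median) by group (horizontal axes). Symbols are as for the odorant-binding proteins, with open symbols for spots not well above background. Scgb1c1 rises in steps from newborn (9.29 to 10.78) to adult (10.90 to 11.39) and old arrays (12.29 to 12.77), and Plunc is lowest in adult rats.

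The genes nearest to Scgb1c1 over the 27 rats were Serpina1, the protease inhibitor alpha-1 antitrypsin (r = 0.971), Mocos (0.965) and Ascl3 (0.961). These values include the steps between ages, and with group means taken out they were 0.741, 0.821 and 0.739. Summed markers of several cell types differed by age as well. Those of olfactory sensory neurons were at 7.65 to 8.79 in pups, 10.21 to 10.64 in adult rats and 10.83 to 11.27 in old rats, those of sustentacular cells were at 10.36 to 11.58 in pups, 11.87 to 12.18 in adult rats and 12.72 to 12.88 in old rats, those of Bowman's and respiratory glands at 6.69 to 8.06, 7.69 to 7.87 and 8.89 to 9.25, and those of goblet and club cells at 10.58 to 11.79, 11.32 to 11.46 and 12.38 to 12.65. Levels were summed before the log2, so a sum follows its brightest genes. In the goblet and club list, Scgb3a1, Scgb3a2, Tff3, Muc5ac, Agr2 and Foxa3 had their highest mean in newborn rats. That sum was thus higher in old rats through Cyp2f4, the remaining gene of the list. In the gland list Bpifa2, Lpo and Dmbt1 had their highest mean in newborn rats, and Ltf its lowest. Ltf was well above background on no old array. The gland sum was higher in old rats mainly through Aqp5, and not through the list as a whole. Aqp5 averaged 7.73 in adult and 9.01 in old rats, and the sum had medians of 7.80 and 9.02. The part of these cells in the Scgb1c1 difference was not tested.

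Plunc, an abundant lipid-binding defence protein of the upper airway, was among the brightest spots at each age. Pups were at 12.13 to 12.60 (median 12.33), adult rats at 11.85, 11.58, 11.37 and 11.37, and old rats at 12.33, 12.64, 12.44 and 12.43. Adult rats lay below every other rat, whereas newborn and old rats overlapped. The level was 1.76-fold higher in newborn than in adult rats (log2 0.82, SE 0.08, adjusted p = 1.39e-08) and 1.89-fold higher in old than in adult rats (log2 0.92, SE 0.11, adjusted p = 3.68e-07), and newborn and old rats did not pass the threshold (log2 -0.10, 95% interval -0.27 to 0.07, adjusted p = 0.342). All 35 spots were read at the lower gain of the scanner, side B of adult rat 13 was saturated, and the spot was only 0.32 to 1.48 below the brightest probe on adult arrays. Before division by the array median its median signal was 358625 units on adult arrays, 323670 on newborn arrays and 272002 on old arrays, so that adult rats came first. The order of the ages thus depends on the division by the array median, and with normexp background correction and quantile normalization the difference of newborn against adult rats was 0.33. That of old against adult rats was 0.27 with quantile normalization, still past the threshold. The genes nearest to Plunc were Ndufv1 (r = 0.949), Hba-a3 (0.946) and Tor1a (0.944), or 0.723, 0.772 and 0.693 with group means taken out.

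Scgb1a1, the club cell secretory protein of the airways, was close to background. It was well above background on 10 of 19 newborn arrays (4 of 4 in L1, 0 of 5 in L2, 3 of 5 in L3 and 3 of 5 in L4), on none of 8 adult arrays and on 7 of 8 old arrays. Pups ranged from -3.37 to -0.88 (median -1.77), adult rats stood at -2.74, -2.63, -2.91 and -3.11, and old rats at -0.25, -0.29, -0.70 and -1.24. Old rats lay above every adult rat, and newborn rats overlapped with both. No adult array measured it above background. Its adult spots were therefore raised, where lower, to the lowest signal well above background of any probe on their array. Old rats then stood 3.58-fold above adult rats (adjusted p = 2.14e-05 for the measured levels). This is not a strict bound, since side B of rat 13, at 27.98 units against such a lowest signal of 27.25, was still not well above background. Pups measured higher than adult rats (log2 0.93, adjusted p = 0.00622), a call lost without any 1 of the 4 adult rats (adjusted p up to 0.0298). No such fold is given for pups, since only 10 of 19 of their arrays were well above background. With normexp background correction and quantile normalization the measured difference of old against adult rats was 0.37 in place of 2.23, still past the threshold. Newborn rats were 2.46-fold below old rats (log2 -1.30, SE 0.28, adjusted p = 0.000352), but L1 and old rats, scanned on 1 day, gave -0.50 (SE 0.24, adjusted p = 0.140). It was the only member called among the 4 litters (F test of limma, adjusted p = 0.00718, against 21.5% of all probes), and the means of L1 to L4 were -1.12, -2.69, -1.93 and -1.94, that of L2 from spots not well above background. Among pups L1 alone had a scan day to itself, while slides largely coincide with litters, and the call was lost when any 1 of 8 of the pups of L1 and L2 was left out (adjusted p up to 0.0239). The genes nearest to it were Tcra-v22.1, Txnl6 and Hoxc8_mapped, as named on the array (r between 0.938 and 0.961).

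Lyz, lysozyme, which cleaves bacterial cell walls and is made by glands and by phagocytes, was highest in old rats. Pups ranged from 5.39 to 7.28 (median 6.13), adult rats stood at 4.63, 5.12, 5.89 and 5.30, and old rats at 7.72, 6.44, 7.12 and 5.95. Every old rat was above every adult rat, by a narrow margin for rat 20. The level was 2.97-fold higher in old than in adult rats (log2 1.57, SE 0.34, adjusted p = 0.000634) and 1.89-fold higher in newborn than in adult rats (log2 0.92, SE 0.26, adjusted p = 0.00501), and newborn against old did not pass the threshold (log2 -0.65, adjusted p = 0.0417). Before division by the array median, the median signal was 4309 units on newborn arrays, 4152 on adult arrays and 4330 on old arrays. The size of these age differences thus depends on that division. With quantile normalization newborn against adult rats was 0.58 and not called (adjusted p = 0.0686). The call of old against adult rats was lost when only those groups were fitted (adjusted p = 0.0227). The call of newborn against adult rats was lost without adult rat 13 (log2 0.71, adjusted p = 0.0450), 14 (0.0194) or 16 (0.0130), and newborn against old passed without old rat 20 (log2 -0.94, adjusted p = 0.00678).

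Lyz moved with leukocyte genes. Its nearest genes were Edg6 (r = 0.925), Lst1, leukocyte specific transcript 1 (0.920), and Nalp12 (0.917). The sum of 8 neutrophil markers, which include S100a8 and S100a9, had a correlation with it of 0.946 over the 27 rats after group means were taken out, against 0.565 for 9 macrophage markers and 0.052 for the gland markers. By age the neutrophil sum was 4.25 to 7.51 in pups, 1.91 to 3.47 in adult rats and 2.34 to 5.83 in old rats, and the macrophage sum 7.66 to 9.00, 7.39 to 8.04 and 8.53 to 8.99. Of the 8 neutrophil markers, 3 were well above background on all newborn arrays, 3 on all adult arrays and 2 on all old arrays. Ela2 and Mmp8 were well above background on no adult array and Ngp on no old array. The neutrophil and gland sums follow their brightest genes, and neither is by itself a measure of cell or gland content. The part of these cells and glands in the Lyz difference was not tested.

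Pigr, the IgA transporter, was lowest in adult rats. Pups ranged from 2.31 to 4.69 (median 3.27), adult rats stood at 0.74, 1.75, 2.71 and 2.12, and old rats at 3.91, 2.76, 4.42 and 2.86. Old and adult rats did not overlap, with 0.05 between the lowest old and the highest adult rat, and newborn rats overlapped with both. The level was 2.85-fold higher in newborn than in adult rats (log2 1.51, SE 0.41, adjusted p = 0.00281), a call lost without adult rat 13 (log2 1.15, adjusted p = 0.0324) or 14 (adjusted p = 0.0107). Old against adult rats missed the threshold (log2 1.66, 95% interval 0.58 to 2.74, adjusted p = 0.0126) and passed it without adult rat 15, old rat 18 or rat 24 of L2 (adjusted p 0.00679, 0.00969 and 0.00682), as well as with rat as a block (adjusted p = 0.00240), slide as a block (0.00840), either filter on dim probes (0.00823 and 0.00663) or side B alone (0.00725). Newborn and old rats differed by -0.15 (95% interval -0.99 to 0.69, adjusted p = 0.791). Before division by the array median, the median signal was 637 units on newborn arrays, 451 on adult arrays and 579 on old arrays. The size of the Pigr differences thus depends on that division. Within L2 the pups with high odorant-binding proteins also had the most Pigr, 4.69 and 4.03 in rats 24 and 25 against 2.52, 2.84 and 2.31 in rats 21 to 23. Its nearest genes were Isg20 (r = 0.865), Ribc2 (0.864) and Plet1 (0.858), and its correlation with the ciliated respiratory cell markers, group means taken out, was 0.743.

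**Figure D5:**
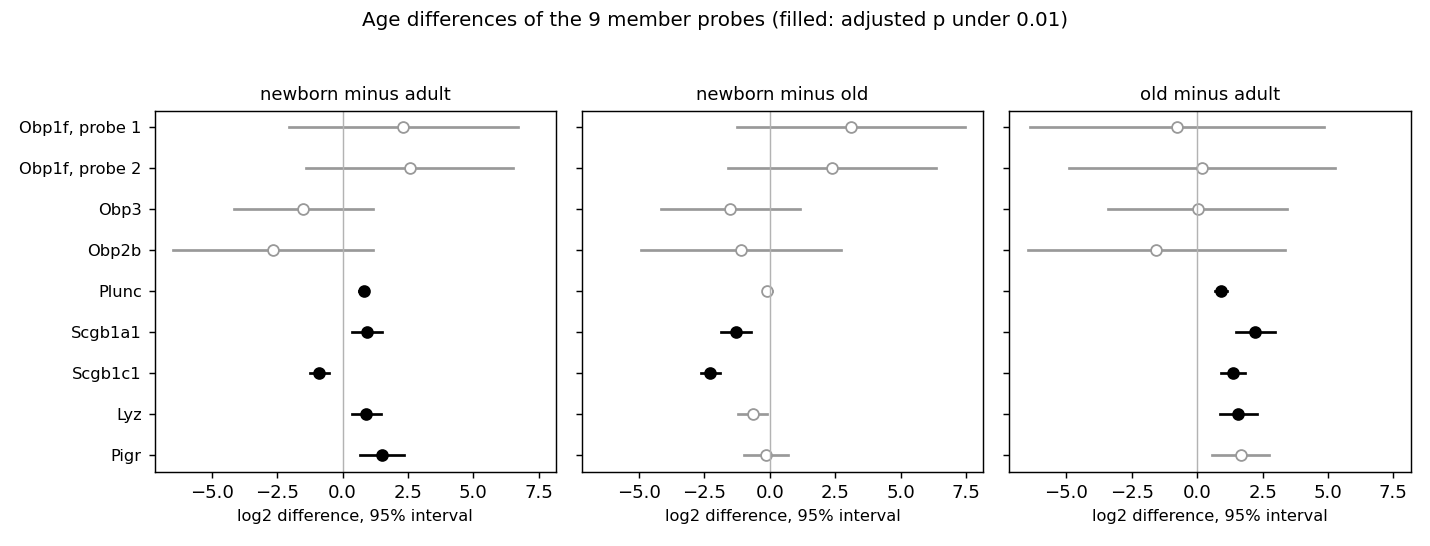
Log2 difference (horizontal axis) between ages for the 9 member probes (vertical axis), with the 95% interval of the limma fit as a line. Filled black points passed an adjusted p of 0.01 and open gray points did not. The odorant-binding protein intervals are wide, from -1.40 to 6.53 for Obp1f probe 2 in newborn minus adult rats, and those of Plunc and Scgb1c1 are narrow.

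Counted together, 5 of 9 member probes were called between newborn and adult rats (4 higher and 1 lower in newborn rats), where 46.3% of all probes were called (26.7% higher and 19.6% lower). Between newborn and old rats 2 of 9 were called, both lower in newborn rats, against 42.8% of all probes (20% higher and 22.8% lower). Between old and adult rats 4 of 9 were called, all higher in old rats, against 31.7% of all probes (20.3% higher and 11.4% lower). The median difference of the 9 probes was 0.92, -0.65 and 0.92 in these comparisons, and that of all probes 0.10, -0.04 and 0.14. Leaving out adult rat 13 or 14 lowered the first count to 2, and leaving out adult rat 16 to 3.

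The other genes of nasal secretion were taken from 4 lists, of which 61 genes had a probe. Between newborn and adult rats 19 were called, 15 higher and 4 lower in newborn rats (31.1%, against 46.3% of all probes, median 0.41). Between newborn and old rats 22 were called, 10 higher and 12 lower (36.1% against 42.8%, median -0.01), and between old and adult rats 13, of which 11 were higher and 2 lower in old rats (21.3% against 31.7%, median 0.42). Of the 13 odorant and lipid binding genes on the array, 4, 3 and 0 were called in these comparisons, of 5 secretoglobins 2, 2 and 0, of 19 mucins and gland genes 6, 8 and 3, and of 24 antimicrobial and IgA genes 7, 9 and 10. These calls include genes at or near background. Rup2, called between newborn and adult rats, was well above background on no array, and Bpifa2, called between newborn and old rats, only on 1 array of L4.

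A further secretoglobin ran against Scgb1c1. Scgb3a1, secreted by airway epithelium, stood at 7.66 ± 0.62 in newborn rats (SD, n = 19), 3.75 ± 0.43 in adult rats (n = 4) and 3.88 ± 0.28 in old rats (n = 4), which is 15.1-fold above adult rats (adjusted p = 1.11e-12) and 13.8-fold above old rats (adjusted p = 3.18e-12). No pup overlapped with an older rat, the lowest pup being at 6.62 and the highest old rat at 4.21. Its relative Scgb3a2 was 6.37-fold higher in newborn than in adult rats (adjusted p = 0.00186) and also higher than in old rats (adjusted p = 7.41e-06), and it was well above background on 5 of 8 adult and 2 of 8 old arrays.

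Among mucins and gland genes, Muc5ac, a gel-forming mucin, was at 3.85 ± 2.28 in newborn and 0.38 ± 0.75 in adult rats (11.0-fold, adjusted p = 0.00861), and newborn against old rats did not pass the threshold (adjusted p = 0.205). Tff3, a trefoil peptide secreted with mucins, was at 1.22 ± 0.93 and -1.91 ± 0.44 (8.77-fold, adjusted p = 1.15e-07), with 5 of 8 adult arrays well above background. Among antimicrobial genes, Camp, the cathelicidin of neutrophils, was at 1.13 ± 0.74 in pups, 0.01 ± 0.67 in adult rats and -3.91 ± 1.68 in old rats, where 1 of 8 arrays was well above background (adjusted p = 8.32e-09 for newborn and 2.32e-05 for adult against old rats, with no fold given since most old arrays did not measure it). Reg3g, a bactericidal lectin, was called higher in old than in adult rats (adjusted p = 0.000158), in which no array was well above background. With adult spots raised as for Scgb1a1 the fold was 3.86, which is not a strict bound either. Pla2g2a, a secreted phospholipase (4.73-fold, adjusted p = 0.000157), and Chia, acidic chitinase (4.72-fold, adjusted p = 0.000670), were higher in old than in adult rats. Igj, the joining chain of secreted IgA, was called between newborn and old rats, but none of their arrays measured it above background, so no fold is given. Camp is itself 1 of the 8 neutrophil markers whose sums are given above. It was lower in old than in adult rats, whereas the sum was 2.34 to 5.83 in old and 1.91 to 3.47 in adult rats. The part of neutrophil number in the Camp difference was not tested.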

How the data were processed

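The authors scanned each array and deposited the Agilent Feature Extraction output (releases 9.5.1.1 and 9.5.3.1), in which spot intensity is background-subtracted and not normalized between arrays. They also deposited a table of ratio values per array median and per gene, used as an alternative only. Control spots and population outliers were left out, and each intensity was divided by the array median before taking the log2, with a floor of 0.01. Spots of a probe were averaged, then both arrays of a rat. No spot of a member carried an outlier flag. Member probes were found by name or description. The 3 age comparisons and the F test among litters were fitted with limma 3.58.1 in R 4.3.3 over 27 rats in 6 groups, pups being averaged over the 4 litters with equal weight, with Benjamini-Hochberg adjustment over 41012 probes at 0.01. The fit was tested on simulated data.

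Where none of a group's arrays measured a probe above background, its spots were raised to the lowest signal well above background on each array. That signal came from any probe, so a fold given in this way is not a strict bound. The genes named were the members, of the other secretory genes the 4 called with the largest change in each comparison, and the 3 genes most correlated with each member over 27 rats. Secretory genes were represented by the probe with the highest mean, and symbols came from the array or, for 10735 probes, from RefSeq by accession. Levels in a list were summed before the log2. The members and lists were chosen with earlier results of these data known. The number of arrays limits the precision. The alternatives were other scalings, background corrections, floors, filters, variance models, blocks for rat, slide and scan day, litter means, the methods' t-test and leaving out each rat.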

Additional observations from a re-analysis of the deposited data

Results flagged for a closer look

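Of 54 combinations of a member probe and a group, 1 held a rat far from the others of its group, where chance gives about 1 in 20. Scgb1a1 was at -1.30 in rat 24 of L2 and between -3.37 and -2.79 in its 4 littermates, and none of these 5 spots was well above background. Its gap made up 0.717 of the range of the litter (limit 0.71). Rat 24 was scanned with another slide than its littermates, and it was also 1 of the pair of L2 pups with high odorant-binding proteins and had the highest Lyz (7.28) and Pigr (4.69) of the litter.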

How the results depend on the processing

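The calls for Scgb1c1 in the 3 age comparisons and those for Plunc and Scgb1a1 in old against adult rats were kept under every alternative run. Newborn against adult, 5 member probes were called, 3 with the 75th percentile, with normexp or with side B alone, and 2 with litter means or the methods' t-test. Lyz fell out of this comparison in 7 alternatives (adjusted p up to 0.0738), Scgb1a1 in 4 (difference 0.08 with normexp), Pigr in 2 and Plunc in 1 (adjusted p = 0.0103). Old against adult, Lyz fell out in 2 alternatives (only the groups compared, adjusted p = 0.0227, and the methods' t-test, 0.0496), and Pigr entered in 5. Newborn against old, 2 were called, and 1 among probes expressed in all groups or with L1 alone. Of the litters, 0 in place of 1 was called with quantile normalization or normexp, at an adjusted p of 0.0104 and 0.0371 for Scgb1a1. The methods' t-test called 6 in place of 13 other secretory genes in old against adult rats.

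The sign turned for Plunc in newborn against old rats with quantile normalization (0.17, adjusted p = 0.000884) and normexp (0.021). For Obp3 in old against adult rats it turned with the 75th percentile (-0.20), quantile normalization (-0.13), a floor of 0.1 (-0.12) and side B alone (-0.45). It turned for Obp1f in old against adult rats with the mean of both sides taken before the log (0.50, probe 1) and side B (-0.36, probe 2), and for Obp2b with side A (0.58, old against adult) and side B (0.40, newborn against old). The alternatives on sides were chosen after seeing the data. The cause was not tested.

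Leaving out each rat in turn gave 2 to 5, 2 to 3 and 4 to 5 member probes in the 3 age comparisons and 0 to 1 among litters, and 13 to 21, 17 to 25 and 10 to 17 other secretory genes. The difference of old against adult rats then ran from -1.66 to 0.12 for Obp1f probe 1, -0.49 to 0.98 for Obp1f probe 2 and -0.83 to 1.02 for Obp3, and that of newborn against old rats from -2.50 to 0.10 for Obp2b and -0.39 to 0.16 for Pigr. No paired analysis was possible because every rat has a number of its own. Signal over background limits Scgb1a1 and Obp3, and the top of the scale limits Plunc and Scgb1c1.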
